A study of Mus musculus with 15 samples.

Results

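The maturation of XCR1+ dendritic cells (DCs) in the spleen of untreated mice was described from 6 of the 15 arrays of the series. These were 3 arrays of immature CCR7- cells and 3 of mature CCR7+ cells, chosen by their sample names, and no measured value entered the choice. The series measured sorted XCR1+ DCs of mouse thymus and spleen on Affymetrix mouse whole-genome arrays, in 5 groups of 3. The other 9 arrays hold thymus CCR7- and CCR7+ cells and spleen CCR7+ cells of mice given polyI:C. Both fractions used here were sorted from spleen as CD11c+ CD317- CD172a- cells. The immature fraction was in addition CD117+ CCR7- and the mature fraction CD117- CCR7+. XCR1 stands in the sample names but not among the gates given. Strain, sex and age of the mice, and whether a replicate was 1 mouse or a pool, are not stated in these sources. The p-values therefore measure only the spread between these samples, which may be technical.

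XCR1+ DCs are the conventional DCs that take up dead cells and present their antigens on MHC class I to CD8 T cells. A resting DC that matures switches on the chemokine receptor CCR7, which guides it towards the CCL19 and CCL21 of the T cell zone, and it changes its programme from sensing and uptake to contact with T cells. Part of the DCs in a healthy spleen mature without an infection, which is called homeostatic maturation.

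Levels are log2 RMA values, in which 1 unit is a 2-fold difference, and 3 values in a row belong to replicates 1, 2 and 3. A change is the mean of the CCR7+ arrays minus the mean of the CCR7- arrays on the log2 scale. A gene was called, and is said to have risen, fallen or changed, at a Benjamini-Hochberg adjusted p under 0.05 in limma over 13629 genes. Where 2 changes stand in brackets, the first is from all 6 arrays and the second from 5, without CCR7+ replicate 1. Levels of different genes come from different probes and are not compared with each other. In sorted cells that are measured in bulk, fewer cells of a type and less RNA per cell cannot be told apart.

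CCR7+ replicate 1 stood apart from the other arrays in RNA quality. The Gapdh probe set at the 3′ end of the transcript read 5.22 above that at the 5′ end in this array, against 3.61 and 3.45 in CCR7+ replicates 2 and 3 and 3.77, 4.01 and 3.73 in the CCR7- arrays. The same difference for Actb was 2.09, against 0.74 and 0.80 in the other CCR7+ arrays and 0.49, 0.77 and 0.94 in the CCR7- arrays. A wider gap means a weaker signal far from the 3′ end, as in more degraded RNA. Both gaps were the widest of the 15 arrays. The first principal component of the 6 arrays held 74.1% of the variance and set the fractions apart. The second held 11.6%, with CCR7+ replicate 1 at 37.7 and replicates 2 and 3 at -13.7 and -31.1. The median standard deviation of a gene was 0.185 in CCR7- cells and 0.274 in CCR7+ cells, and 0.195 between CCR7+ replicates 2 and 3. The last value comes from 2 arrays and tends to be smaller for the same spread, so it cannot be set directly against the others.

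**Figure D1:**
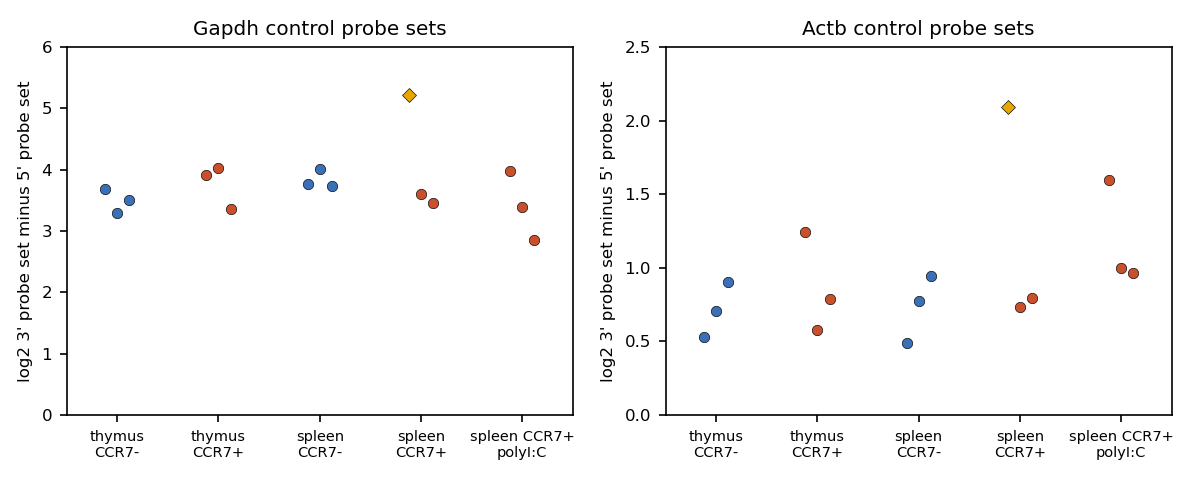
Difference between the 3′ and the 5′ control probe set (log2, y axis) of Gapdh (left) and Actb (right) in each of the 15 arrays, by group (x axis); each point is 1 array and the diamond is spleen CCR7+ replicate 1. The diamond is the highest point in both panels, at 5.22 and 2.09.

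Of the 13629 genes tested, 4969 (36.5%) were called, 1678 (12.3%) higher and 3291 (24.1%) lower in CCR7+ cells. Without CCR7+ replicate 1 the numbers were 4390 (32.2%), 1616 (11.9%) and 2774 (20.4%). Both fits called 1444 genes higher and 2645 lower, and no gene was called in opposite directions. The arrays of the fractions did not overlap in 5858 genes (43%), 2173 higher and 3685 lower. The rises went further than the falls. At least 8-fold apart were 137 genes that rose and 12 that fell, and 145 and 2 without CCR7+ replicate 1. The replicate acted mostly on the falls. Genes called lower in both fits had a median change of -1.16 with it and -1.05 without it, and 74.9% of them fell further with it. For genes called higher in both fits the medians were 1.18 and 1.23. In 72.5% of the 1784 genes that fell at least 2-fold this array was the lowest of the CCR7+ arrays, against 39.5% of all genes tested. It was the lowest in 44.7% of the 889 genes that rose at least 2-fold. Both sets were selected by means that include this array, and a low value in it helps a gene to count as a fall. These shares therefore describe the sets and are no test.

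**Figure D2:**
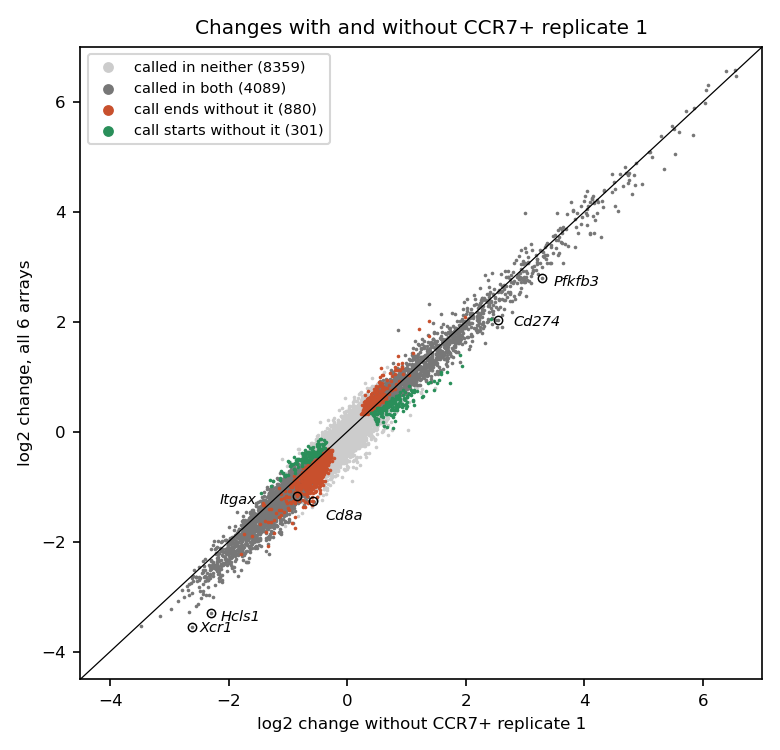
Log2 change of each of 13629 genes, CCR7+ minus CCR7-, from all 6 arrays (y axis) and without CCR7+ replicate 1 (x axis), with the line of equality; colours give the limma calls in both fits. Without the replicate the calls of 234 higher and 646 lower genes ended and those of 172 and 129 started, and Xcr1 and Hcls1 lie under the line because their falls shrank.

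The genes of the sort gates came first, since they check the labels. Ccr7 read 7.47, 8.80 and 9.0 in CCR7- cells and 12.53, 12.98 and 13.35 in CCR7+ cells. Kit, which encodes CD117, read 11.49, 11.07 and 11.18 in CCR7- and 8.46, 9.15 and 8.23 in CCR7+ cells. Both followed the gates in every array, which is no finding. Itgax (CD11c) was part of the gate in both fractions, yet its transcript fell (-1.17 and -0.85), and that call ended without CCR7+ replicate 1 (adjusted p = 0.0745, limma). Bst2 (CD317) was gated out in both and rose slightly (0.70 and 0.68). Sirpa (CD172a) read between 6.12 and 6.84 in all 6 arrays (0.11 and 0.06), with no call.

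The cells carried the marker transcripts of XCR1+ DCs in both fractions, at lower levels in the mature one. The mean over 9 marker genes of this lineage was 11.63, 11.55 and 11.54 in CCR7- cells and 9.49, 10.38 and 10.66 in CCR7+ cells. All 9 were above the filter value of 4.39 in all 6 arrays. So were all 9 plasmacytoid DC markers, 9 of 11 macrophage markers and 7 of 9 T cell markers, so passing this value does not set the lineage apart. The mean over 10 genes known from mature DCs was 8.08, 9.19 and 8.93 in CCR7- cells and 12, 12.14 and 12.41 in CCR7+ cells. The fractions did not overlap, but this list holds the gate gene Ccr7, so the sort fixed part of the separation. CCR7- replicate 1 was the lowest of its group in the mature DC list. It was also the lowest in 52.4% of the 889 genes that rose at least 2-fold, against 42.3% of all genes tested. The selection of the 889 used this array too, and a low value in it helps a gene to count as a rise.

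Xcr1, the receptor for the chemokine XCL1 that gives the cells their name, had the largest fall of all genes tested when all 6 arrays were used. It read 11.81, 11.50 and 11.43 in CCR7- cells and 6.16, 9.0 and 8.93 in CCR7+ cells. The fractions were separate, but CCR7+ replicate 1 was far under the other CCR7+ arrays, and the change was -3.55 with it and -2.62 without it. Of 33 tested genes listed for XCR1+ DC identity and cross-presentation, 28 fell and 3 rose (27 and 3 without the replicate), with a median change of -1.80 against -0.03 for all genes tested. Tlr3, the sensor of double-stranded RNA, read 11.50, 11.06 and 11.15 in CCR7- and 6.86, 8.68 and 8.77 in CCR7+ cells. Cadm1, an adhesion molecule of this lineage, fell less but evenly (-1.47 and -1.39), as all 4 of its probe sets did. Itgae (CD103), the αE integrin that binds E-cadherin, read 11.06, 11.06 and 10.85 against 8.20, 9.04 and 9.15. Wdfy4, which is needed for cross-presentation, fell (-1.69 and -1.36), as did the UDP-glucose receptor P2ry14 (-2.97 and -2.67).

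The factors that specify the lineage did not move as a block. Irf8, required for the development of these DCs, read 13.44, 13.27 and 13.25 in CCR7- and 12.06, 12.10 and 12.63 in CCR7+ cells. Batf3, its partner, read 9.38, 9.56 and 9.73 in CCR7- and 10.40, 10.09 and 10.60 in CCR7+ cells. One was lower and the other higher in mature cells, each without overlap. Ly75 (DEC-205), an endocytic receptor used to mark splenic CD8+ DCs, rose (0.99 and 1.06). Cd8a, Zbtb46 and Flt3 were called lower only with CCR7+ replicate 1. Cd8a changed by -1.26 with it and by -0.57 without it (adjusted p = 0.0984, limma). Zbtb46, a factor of conventional DCs, gave -0.50 and -0.33, and the growth factor receptor Flt3 gave -0.39 and -0.29.

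**Figure D3:**
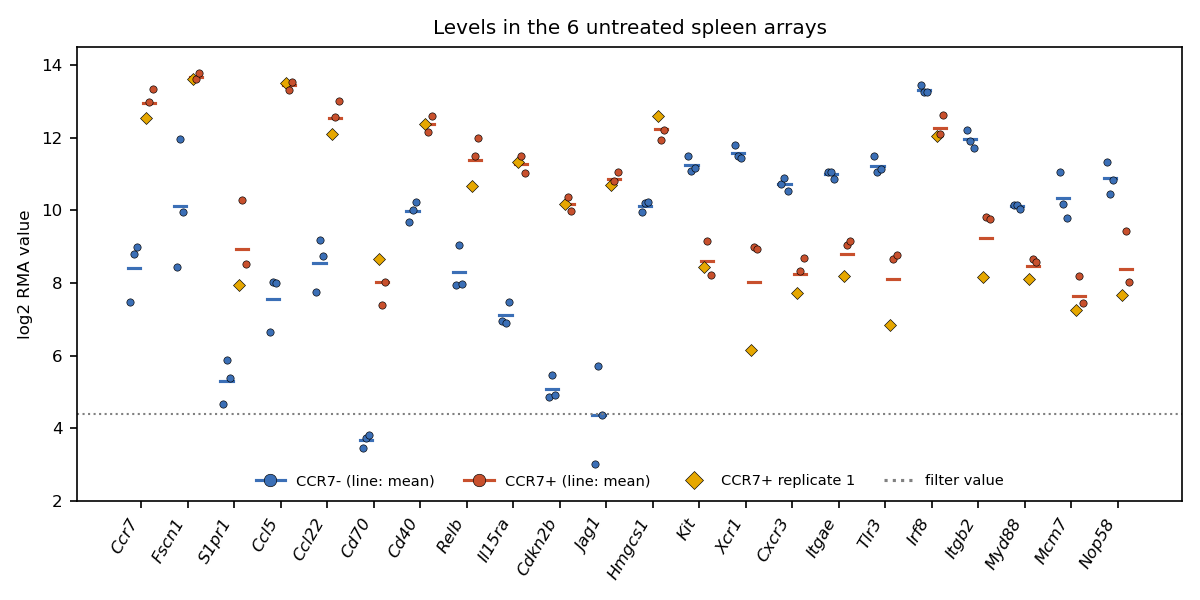
Log2 RMA values (y axis) of 22 genes (x axis) in the 3 CCR7- and 3 CCR7+ spleen arrays; points are arrays, short lines are group means, diamonds are CCR7+ replicate 1 and the dotted line is the filter value of 4.39. The genes were chosen with their values known and include the gate genes Ccr7 and Kit. The fractions therefore do not overlap in any gene shown, against 43% of all genes tested. The diamond lies lowest of the CCR7+ arrays in Xcr1 (6.16) and Tlr3 (6.86).

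The largest rises started from different levels, some near the filter value and some well above it. Zmynd15, a zinc finger gene, read 3.38, 5.34 and 5.37 in CCR7- and 11.36, 11.12 and 11.37 in CCR7+ cells. Insm1, a transcriptional repressor known from neuroendocrine cells, read 2.83, 5.47 and 3.91 against 10.99, 10.46 and 10.46. The Notch ligand Jag1 read 3.02, 5.73 and 4.38 against 10.70, 10.81 and 11.06. In all of them CCR7- replicate 1 was the lowest array and the CCR7+ arrays lay within 1 unit of each other. Ankrd33b (6.31 and 6.08), the adhesion gene Dscaml1 (6.22 and 6.06), the protease gene Asprv1 (5.97 and 6.04), the chemokine Ccl5 (5.89 and 5.86) and the annexin Anxa3 (5.83 and 5.73) followed. Arg2, the mitochondrial arginase, rose by 5.56 (5.48 without the replicate) and Scin, an actin-severing protein, by 5.51 (5.52). Further rises were those of the δ-opioid receptor Oprd1 (5.45 and 5.60), the adenylate cyclase Adcy6 (5.40 and 5.84), Atxn1 (5.38 and 5.29), the CDK inhibitor Cdkn2b (5.09 and 5.10) and the cytokine signal inhibitor Socs2 (5.08 and 5.11). These sizes belong to the probe set chosen for each gene, and some genes had others with far smaller changes. All 3 probe sets of Jag1, Ankrd33b and Atxn1 rose, but the smallest changes were 0.79, 1.22 and 1.23. Of the 4 probe sets of Dscaml1, 3 rose, and the smallest change was 0.43. In Insm1 and Arg2 the lower of the 2 probe sets still gave 4.803 and 5.004.

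In 26 genes every CCR7- array lay under the filter value and every CCR7+ array above the 60th percentile of all values (5.55), and 1 gene showed the reverse. RMA gives no detection call, so a value under the filter is a dim signal and its fold change is compressed. The 26 include the T cell ligand Cd70, which read 3.47, 3.73 and 3.81 in CCR7- and 8.68, 7.41 and 8.04 in CCR7+ cells. Oprd1 read 3.69, 4.14 and 3.95 against 9.08, 9.38 and 9.68. Adipoq, the fat cell hormone adiponectin, read 3.89, 4.20 and 3.88 against 8.80, 8.05 and 7.96. Tmem150c (4.70 and 4.75), the desmosomal gene Perp (4.10 and 3.94) and the chemokine Ccl9 (3.97 and 3.89) belong here as well. The reverse was seen in Serpinb2, an inhibitor of plasminogen activators, with 8.22, 6.50 and 7.76 in CCR7- and 3.83, 4.11 and 3.93 in CCR7+ cells. It was brighter than any of its CCR7+ values in all 3 CCR7- arrays.

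**Figure D4:**
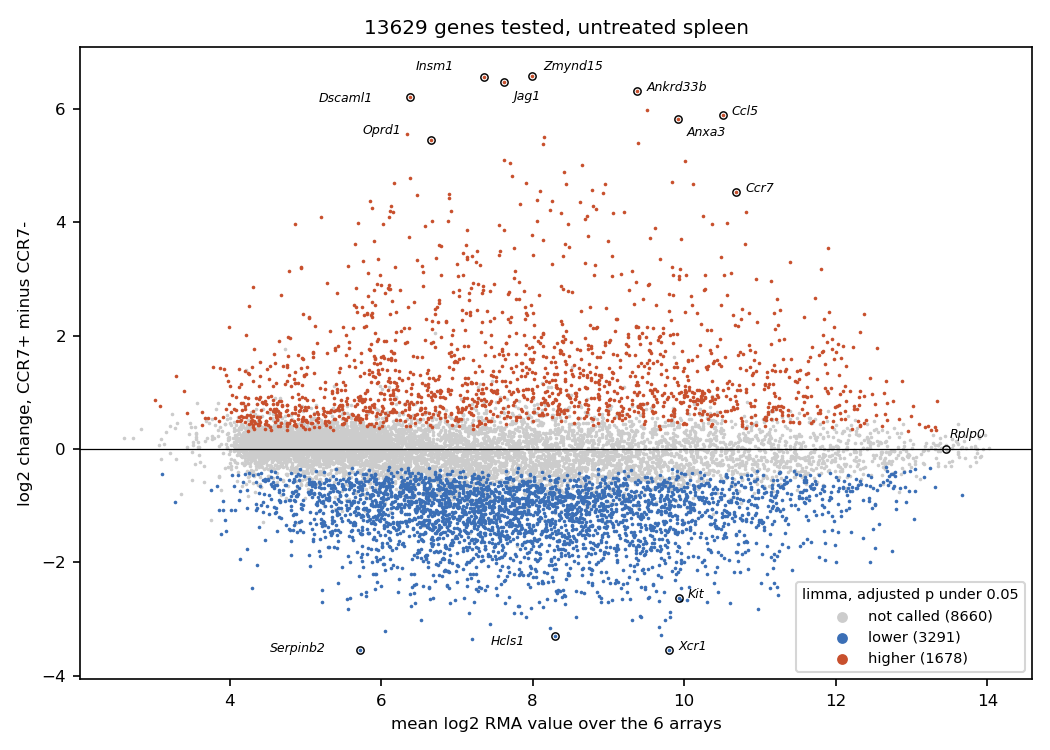
Log2 change, CCR7+ minus CCR7- (y axis), against the mean log2 RMA value over the 6 arrays (x axis) for 13629 genes; each point is 1 gene, coloured by its limma call, and named genes are circled. Rises reach 6.59 (Zmynd15), whereas the largest falls end at -3.55 (Xcr1) and -3.54 (Serpinb2).

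Genes were then grouped in 48 lists by function, of which 1323 of 1374 distinct genes on the array were tested. Each count below is read against the 12.3% of all genes that rose and the 24.1% that fell. Lists whose shares lie near these values are not results about the list.

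Migration genes included rises and falls. Of 35 tested, 12 rose and 7 fell (13 and 5 without CCR7+ replicate 1). The falls, at 20%, were under the share of all genes tested. Fscn1, which bundles actin in the dendrites of mature DCs, read 8.44, 11.97 and 9.96 in CCR7- and 13.63, 13.61 and 13.77 in CCR7+ cells. The CCR7- arrays differed widely among themselves, with replicate 2 the highest, and none reached the CCR7+ arrays. Anxa3, Samsn1 (3.18 and 3.31), Marcksl1 (2.37 and 2.37) and Swap70 (2.15 and 2.29), which binds Rac and F-actin, rose too. Hcls1, a cortactin-like protein of blood cells, read 9.92, 10.31 and 9.59 in CCR7- and 4.63, 7.50 and 7.81 in CCR7+ cells. It changed by -3.30 with CCR7+ replicate 1 and by -2.29 without it. The scaffold gene Iqgap2 (-3.16 and -2.55), Was (-1.92 and -1.77), which activates Arp2/3, and Coro1a (-1.43 and -1.21) fell as well.

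Of 12 chemokine receptors tested, 5 rose and 4 fell, and 4 and 4 without CCR7+ replicate 1. Ccr7, whose rise the sort gate fixed, is counted among the rises in both fits. The count of 5 was 3 without CCR7- replicate 1 or 3 or CCR7+ replicate 2. Besides Xcr1, Cxcr3 fell, the receptor for the interferon-induced chemokines CXCL9 and CXCL10, from 10.73, 10.90 and 10.53 to 7.73, 8.33 and 8.70. Ccr2 read 7.92, 6.85 and 6.58 in CCR7- and 4.68, 5.62 and 4.02 in CCR7+ cells. Ccr9, a homing receptor of gut and thymus, fell with more spread (-2.03 and -1.94). S1pr1, the sphingosine-1-phosphate receptor that takes cells out of lymphoid organs, rose as Ccr7 did. It read 4.68, 5.89 and 5.39 in CCR7- and 7.95, 10.30 and 8.53 in CCR7+ cells, with the highest value in replicate 2.

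Adhesion genes stood in 2 lists, and the difference between the lists was not tested. In the list of integrins and related adhesion genes 8 of 32 rose and 11 fell (8 and 9 without CCR7+ replicate 1). The count of 8 was 5 without CCR7- replicate 1 or CCR7+ replicate 3. Itgb2, the β2 chain shared by LFA-1 and CD11c, read 12.21, 11.92 and 11.73 in CCR7- and 8.17, 9.82 and 9.76 in CCR7+ cells. Itgal, the α chain of LFA-1, read 11.98, 11.65 and 11.82 against 9.28, 9.83 and 9.87. Itgb7, the partner of αE, fell with them (-1.88 and -1.64), whereas Vcam1, a ligand of α4 integrins, rose (1.84 and 1.94). Itgb8, whose protein with αV activates latent TGF-β, read 2.66, 2.90 and 3.07 in CCR7- cells and 6.79, 6.06 and 4.33 in CCR7+ cells.

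In the list of cadherins, junction proteins and axon guidance genes 17 of 35 rose and 3 fell (14 and 3 without CCR7+ replicate 1), with a median change of 0.55. Dscaml1 led it. The transmembrane semaphorin Sema6d read 5.64, 7.08 and 6.75 in CCR7- and 10.70, 11.39 and 11.11 in CCR7+ cells. F11r (JAM-A), a tight junction protein, read 5.25, 6.13 and 5.66 against 9.58, 9.80 and 9.26. Cdh2 (N-cadherin) rose on the mean (3.95 and 4.04), but its CCR7- arrays read 3.43, 8.28 and 5.04, the widest range in this list among those described. Sema7a (2.54 and 2.92) and Nrp2 (1.63 and 1.6) rose. Sema4d (-2.28 and -1.95) and Nrp1 (-2.11 and -2.21) fell, so the neuropilins Nrp1 and Nrp2 changed in opposite directions.

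Chemokines made by mature cells include both homeostatic and inflammatory members. Of 18 tested, 7 rose and 2 fell (7 and 1 without CCR7+ replicate 1). The count of 2 was also 1 without CCR7- replicate 3. Ccl5, which attracts effector T cells, read 6.65, 8.04 and 8.0 in CCR7- and 13.51, 13.32 and 13.53 in CCR7+ cells. Ccl22, which attracts CCR4+ T cells including regulatory T cells, read 7.76, 9.19 and 8.75 against 12.10, 12.56 and 13. Ccl9 read 4.21, 3.91 and 4.0 against 8.18, 7.93 and 7.92. Each of these genes was higher in every CCR7+ array than in any CCR7- array. Cxcl16 rose (2.20 and 2.46), and Cxcl9, which attracts CXCR3+ cells, read 12.86, 12.69 and 12.98 in CCR7- and 11.03, 10.96 and 10.65 in CCR7+ cells. Cxcl9 and its receptor Cxcr3 were thus both lower in mature cells.

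Genes for ligands of T cells split. Of 25 tested in the list of T cell costimulation and inhibition, 10 rose and 10 fell, and 11 and 7 without CCR7+ replicate 1. Pvr (CD155), a ligand of CD226 and TIGIT, read 6.81, 7.17 and 6.94 in CCR7- and 11.16, 10.62 and 11.65 in CCR7+ cells, and all 7 of its probe sets rose. The receptor Cd40, through which T cells license DCs, read 9.69, 10.02 and 10.24 against 12.38, 12.17 and 12.60. Cd200 (2.54 and 2.55), Icosl (2.24 and 2.28) and Tnfsf9, the ligand of 4-1BB (2.06 and 2.04), rose. Cd274 (PD-L1) read 8.05, 8.38 and 8.30 in CCR7- and 9.24, 10.89 and 10.69 in CCR7+ cells, so its rise was 2.03 with CCR7+ replicate 1 and 2.55 without it.

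The B7 gene Cd86 went the other way. It read 12.25, 12.42 and 12.50 in CCR7- and 11.45, 11.35 and 10.93 in CCR7+ cells, and both of its probe sets fell (-1.15 and -1.25 for the one used). Cd48, a ligand of CD244, fell (-1.19 and -1.35). Cd80 read 7.71, 8.25 and 8.06 against 6.60, 7.52 and 7.44. Its fall of -0.82 was called with CCR7+ replicate 1, and its change of -0.53 without the replicate was not (adjusted p = 0.054, limma).

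TNF receptors and ligands rose more often than they fell. Of 19 tested, 8 rose and 3 fell, with and without CCR7+ replicate 1. Tnfrsf1b (TNFR2) read 8.11, 8.71 and 7.76 in CCR7- and 12.38, 11.92 and 12.60 in CCR7+ cells, though only 1 of its 2 probe sets was called. Tnfrsf11a (RANK), whose ligand prolongs the life of DCs, read 5.19, 5.59 and 5.71 against 8.81, 8.81 and 9.07. The death receptor Fas read 4.44, 4.54 and 4.67 against 7.40, 7.49 and 7.44. The fractions did not overlap in these genes. Tnfrsf9 rose (2.95 and 3.19), and Tnfrsf21 (DR6) fell (-2.36 and -1.98).

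Most genes of the NF-κB pathway rose. NF-κB is a family of dimeric transcription factors held in the cytoplasm by IκB proteins, and the RelB and p52 pair is known from DC maturation. Of 27 tested, 18 rose and none fell, in both fits, with a median change of 1.14 and 1.13. Without CCR7+ replicate 2 or 3 the number of genes that fell was 1. Relb read 7.94, 9.04 and 7.98 in CCR7- and 10.67, 11.51 and 12.01 in CCR7+ cells. Nfkb2, which encodes the p52 precursor, read 6.45, 6.75 and 6.07 against 7.53, 7.87 and 8.62. The c-Rel gene Rel read 7.96, 8.47 and 9.72 against 9.95, 10.48 and 10.78, so that CCR7- replicate 3 came close to the CCR7+ arrays. CCR7+ replicate 1 was the lowest of its group in each of these genes.

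Of the inhibitors and adaptors of the pathway, some rose and some were not called. Tnfaip3 (A20), a feedback inhibitor, read 10.57, 11.09 and 11.88 in CCR7- and 12.52, 12.70 and 13.07 in CCR7+ cells. The adaptors Traf1 (2.24 and 2.65) and Traf2 (1.89 and 1.97) and the ubiquitin ligase Birc2 (3.07 and 3.06) rose. Nfkbia (IκBα), with 13.41, 13.66 and 13.71 against 13.72, 13.80 and 13.94, was not called (adjusted p = 0.197, limma), and it was near the top of the scale in every array. The deubiquitinases Cyld (-0.43 and -0.29) and Otulin (-0.61 and -0.17) were not called either.

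A form of the κB site, GGG then any 2 bases then TTTCC, was searched on both strands in the 250 bases before the gene start. It was found in 6 of the 24 NF-κB pathway genes that the RefSeq promoter table holds (25%), in 1.41% of all 32851 promoters of the table and in 1.78% of the tested genes in it. The 6 were Nfkb2, Rel, Tnfaip3, Tank, Nfkbia and Cyld, and the first 4 rose while Nfkbia and Cyld were not called. For the sterol genes described further on, the SREBP-type letters TCACNCCAC were found in 1 of 19 (5.3%), Hmgcs1. The shares were 1.05% of all promoters and 1.32% of the tested genes, and 1 gene does not set the list apart. Below are the 150 bases before the start of Nfkb2, Rel, Tnfaip3 and Hmgcs1 from RefSeq on GRCm38.p6, each 5′ to 3′ in the direction of the gene. They show where the match lies in genes that rose, and the match is in capitals. Nfkb2 is at chr19:46304587-46304736 on the plus strand, with the match on the gene's own strand. Rel is at chr11:23770970-23771119 and Tnfaip3 at chr10:19015411-19015560, both on the minus strand and with the match on the strand opposite to the gene, so that its reverse complement is seen. Hmgcs1 is at chr13:119690201-119690350 on the plus strand.
Nfkb2: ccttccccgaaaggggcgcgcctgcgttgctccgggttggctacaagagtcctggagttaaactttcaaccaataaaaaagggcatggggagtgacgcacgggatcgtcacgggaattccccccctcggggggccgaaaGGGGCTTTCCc
Rel: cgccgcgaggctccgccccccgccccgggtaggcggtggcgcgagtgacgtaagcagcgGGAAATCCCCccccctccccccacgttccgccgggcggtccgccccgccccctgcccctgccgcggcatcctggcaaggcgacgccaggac
Tnfaip3: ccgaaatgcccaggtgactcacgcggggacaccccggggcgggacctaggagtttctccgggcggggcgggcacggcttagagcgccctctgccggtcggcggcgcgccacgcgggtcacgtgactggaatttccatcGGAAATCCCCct
Hmgcs1: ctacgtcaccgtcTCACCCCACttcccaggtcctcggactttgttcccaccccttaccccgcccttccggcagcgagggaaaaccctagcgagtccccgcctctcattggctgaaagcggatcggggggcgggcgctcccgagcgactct
The match begins 11 bases before the start in Nfkb2, 12 in Tnfaip3, 91 in Rel and 137 in Hmgcs1. Rel and Tnfaip3 share the same 10 letters. A further Nfkb2 promoter in the table, not shown, has a match that begins 225 bases before its start. An interferon-type site, GAAA then any 2 bases then GAAA, was found in 9 of 21 type I interferon response genes in the table (42.9%). The shares were 2.98% of all promoters and 3.23% of the tested genes. Of the 9 interferon response genes with the site, Ifit1, Rsad2 and Bst2 rose, Trim30a fell, and Ddx60, Ifit3, Oas1a, Oas3 and Stat2 were not called. A match of letters is a description of the window and says nothing of binding in these cells.

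Cytokine genes rose more often than they fell, 10 and 3 of 21 (9 and 2 without CCR7+ replicate 1). Without CCR7- replicate 1 the rises were 6. Il15, which sustains CD8 T and NK cells, read 8.15, 8.0 and 8.55 in CCR7- and 11.51, 11.54 and 11.31 in CCR7+ cells. Its presenting receptor chain Il15ra read 6.96, 6.90 and 7.48 against 11.33, 11.51 and 11.03. The fractions did not overlap in either gene. Il12b, the p40 chain of IL-12 and IL-23, read 6.83, 7.85 and 8.53 against 10.73, 10.80 and 11.09.

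Of 37 receptors for cytokines and growth factors, 10 rose and 7 fell, and 10 and 6 without CCR7+ replicate 1. Kit, whose protein was part of the gates, is counted among the falls in both fits. Il7r, a receptor chain for IL-7 and TSLP, read 6.31, 7.21 and 6.43 in CCR7- and 11.23, 10.99 and 10.62 in CCR7+ cells. Il21r rose (2.77 and 3.04). Ifngr1, the ligand-binding chain of the interferon-γ receptor, read 12.21, 12.20 and 12.09 against 10.10, 10.30 and 10.46. Il6ra (-2.04 and -1.72) and the TGF-β receptor chain Tgfbr2 (-1.52 and -1.35) fell. Downstream of these receptors, 8 of 24 JAK-STAT and SOCS genes rose and 2 fell. The count of 2 was 1 without CCR7+ replicate 1 or CCR7- replicate 1 or 2. Socs2 read 6.59, 7.91 and 7.90 in CCR7- and 12.50, 12.63 and 12.51 in CCR7+ cells, and its 5 probe sets all rose. Stat4 read 3.32, 4.51 and 3.49 against 5.44, 6.79 and 6.24.

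In the list of DC transcription factors 16 of 46 rose and 10 fell, and the falls were 6 without CCR7+ replicate 1. Like the other lists it was written with earlier results of these data known. It holds Insm1, given above among the largest rises, so its count of rises is not independent of these data. Mxd1, a partner of MAX that opposes MYC, read 8.74, 9.34 and 8.92 in CCR7- and 11.44, 12.44 and 12.30 in CCR7+ cells. Mycl, the MYC family member of conventional DCs, read 12.14, 11.91 and 11.66 against 9.58, 9.70 and 10.06. Irf1 read 10.98, 11.28 and 11.03 against 12.27, 12.94 and 13.65. The fractions were separate in these 3 genes. Runx1 (-2.33 and -1.75), Ikzf1 (-1.66 and -1.36), Runx3 (-1.56 and -1.32) and Ahr (-1.52 and -1.23) fell. Irf4, a factor of migratory DCs, was not called with CCR7+ replicate 1 (1.20, adjusted p = 0.0993) and was called without it (1.94, adjusted p = 0.0028, limma).

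Genes of antigen presentation by MHC class II included rises and falls. Of 25 tested, 7 rose and 7 fell (9 and 7 without CCR7+ replicate 1). With all 6 arrays the share that fell, 28%, lay near that of all genes tested. H2-Aa read 13.71, 13.68 and 13.72 in CCR7- and 13.61, 13.48 and 13.59 in CCR7+ cells and was not called, with a 95% confidence interval of the change from -0.39 to 0.10. The invariant chain Cd74 (-0.30 and -0.27) was not called either. Such bright probe sets can be compressed. Ciita, the class II transactivator, read 9.62, 8.54 and 8.48 against 6.81, 6.68 and 6.80, and its 3 probe sets all fell. Marchf1, the ligase that takes class II from the surface, fell (-2.52 and -2.32), whereas Rfx5, a factor of class II promoters, was not called (0.15 and 0.47). Among the class II chains H2-Ab1 fell (-0.80 and -0.78), and its fractions did not overlap. H2-DMa (-1.31 and -1.39) and H2-Ob (-2.35 and -1.99), which act on peptide loading, fell as well. H2-Eb2, a little-studied class II β gene, rose from 7.42, 8.26 and 7.92 to 10.32, 10.90 and 10.79.

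In the MHC class I list 5 of 19 rose and 1 fell, and 7 and 1 without CCR7+ replicate 1. The count of 5 was 3 without any 1 of the CCR7- arrays or CCR7+ replicate 2, and it was 11 with the mean of each gene's probe sets. Without CCR7+ replicate 3 the falls were 2. Nlrc5, the class I transactivator, read 9.20, 9.28 and 10.01 in CCR7- and 10.91, 11.23 and 12.16 in CCR7+ cells, in the direction opposite to Ciita. The peptide editor Tapbpl rose (1.71 and 1.71). B2m (0.23 and 0.22) and H2-K1 (0.20 and 0.23), both above 13 in every array, were not called.

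Sensors of microbes fell more often than they rose. Of 32 Toll-like receptors, adaptors and other sensors, 15 fell and 5 rose (15 and 4 without CCR7+ replicate 1), with a median change of -0.55. Besides Tlr3, Tlr12 (-2.19 and -1.95) and Tlr4 (-1.93 and -1.56) fell. The shared adaptor Myd88 read 10.16, 10.15 and 10.05 in CCR7- and 8.13, 8.67 and 8.59 in CCR7+ cells. Ly96 (MD-2), the partner of TLR4, went the other way, with 7.55, 7.47 and 8.14 against 10.91, 9.96 and 9.78, and Tlr1 also rose (2.29 and 2.30). Uptake receptors lay near the background, with 4 of 32 higher and 8 lower in each fit, and 7 of the falls were called in both. Mfge8, which bridges dying cells to integrins, rose from 6.38, 7.31 and 6.18 to 10.38, 9.49 and 9.80, and the scavenger receptor Scarb1 fell (-2.39 and -2.10).

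Interferon-inducible genes were mixed. Of 28 genes of the type I response 8 rose and 5 fell (9 and 5 without CCR7+ replicate 1). In the list of guanylate-binding proteins (GBP), immunity-related GTPases (IRG) and interferon-γ targets 4 of 15 rose and 7 fell (4 and 6). Gbp2 read 7.56, 7.52 and 7.96 in CCR7- and 11.59, 11.18 and 11.45 in CCR7+ cells, and Gbp3 rose as well (2.17 and 2.09). The IRG genes Iigp1 (-1.94 and -1.85) and Irgm1 (-1.72 and -1.56) fell. GBP and IRG genes described here thus changed in opposite directions within the same list.

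G protein-coupled receptors and their signalling genes were lower in 14 and higher in 9 of 40 (12 and 10 without CCR7+ replicate 1). Receptors for nucleotides and lipids were found among the falls, the rises and the genes not called. S1pr1 rose, as given above, and P2ry13 (-0.28 and -0.30) and the leukotriene receptor Ltb4r1 (-0.06 and -0.04) were not called. P2ry6, a UDP receptor, read 10.81, 11.11 and 10.75 in CCR7- and 7.32, 8.29 and 8.25 in CCR7+ cells. Gpr34, a receptor of lysophosphatidylserine, read 9.41, 9.24 and 9.49 against 6.37, 7.56 and 5.78, and the leukotriene receptor Cysltr1 fell (-2.56 and -2.43). Adcy6 read 5.79, 7.61 and 6.67 against 11.21, 12.21 and 12.85. In signalling from immune receptors with ITAM and ITIM motifs 13 of 31 fell and 4 rose (11 and 4). The adaptor Sla (-2.82 and -2.35), the phosphatases Ptpn22 (-2.48 and -1.95) and Inpp5d (-2.30 and -1.66) and the kinase Btk (-2.10 and -1.65) fell. Notch genes other than Jag1 fell or were not called apart from Psen2 (0.68 and 0.67), with Notch4 (-2.42 and -2.26) and the target Hes1 (-1.71 and -1.54) lower, and 2 of 20 rose and 6 fell. Without CCR7+ replicate 1 these were 3 and 4, and without CCR7- replicate 3 the rises were 1.

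Mitosis and DNA replication genes were mostly lower in CCR7+ cells. Of 39 mitosis genes tested 34 fell and none rose, in both fits, with a median change of -1.66 and -1.54. When probe sets that may match several transcripts (_s_at, _x_at, _a_at) were left out the falls were 21. Genes with no other probe set were then not tested, so this count is not out of 39. The mean level over the 39 genes was 8.02, 6.88 and 7.01 in CCR7- and 5.48, 6.04 and 5.50 in CCR7+ cells. CCR7- replicate 1 was the highest array here, and it was also the array with the lowest level of the mature DC genes. Kif23 read 8.93, 7.83 and 8.04 in CCR7- and 5.29, 5.60 and 5.75 in CCR7+ cells. Of 34 DNA replication genes 25 fell and 2 rose, and 25 and 0 without CCR7+ replicate 1. No more than 1 of them rose without any other single array. Mcm7, a subunit of the replicative helicase, read 11.05, 10.17 and 9.78 against 7.26, 8.19 and 7.47, and all 4 of its probe sets fell. Mki67 overlapped between the fractions (7.81, 6.14 and 7.76 against 5.07, 5.83 and 6.72) and was not called.

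Inhibitors of the cycle included rises and falls. In the list of G1 cyclins, CDK inhibitors and growth arrest genes 8 of 31 rose and 8 fell in both fits. Falls made up 25.8%, near the share of all genes tested. Cdkn2b (p15) read 4.86, 5.46 and 4.92 in CCR7- and 10.17, 10.36 and 10.00 in CCR7+ cells. Cdkn1a (p21) read 8.84, 10.29 and 9.44 against 11.29, 11.97 and 12.72, and Cdkn2a read 3.97, 4.38 and 4.41 against 5.60, 6.62 and 5.64. The stress-induced arrest genes Gadd45b (4.67 and 4.73) and Gadd45a (3.02 and 3.16) and the atypical cyclin Ccng2 (2.97 and 2.93) rose. So did Ccnd2, a cyclin that promotes G1 progression (2.25 and 2.21), in 6 of its 7 probe sets. The CDK inhibitor Cdkn2c (-0.80 and -0.83) and the antiproliferative gene Btg2 (-1.64 and -1.04) fell, and the CDK inhibitors Cdkn1b (-0.45 and -0.18) and Cdkn2d (-0.53 and -0.40) were not called.

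The machinery that builds ribosomes fell, while transcripts of the ribosomal proteins were not called. Of 35 genes of ribosome biogenesis and RNA polymerase I, 31 fell and none rose (28 and 0 without CCR7+ replicate 1), with a median change of -1.46 and -1.18. Their mean level was 8.99, 8.71 and 8.79 in CCR7- and 7.01, 7.78 and 7.55 in CCR7+ cells, lowest in CCR7+ replicate 1. Nop58, a core protein of the particles that methylate ribosomal RNA, read 11.35, 10.46 and 10.85 against 7.68, 9.43 and 8.04. Its methyltransferase partner Fbl read 11.21, 11.42 and 11.07 against 8.13, 9.80 and 9.39. Polr1e, a subunit of RNA polymerase I, read 7.75, 7.56 and 7.97 against 4.77, 5.81 and 5.46.

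Of 30 cytosolic ribosomal proteins tested, limma called none in either fit, and their changes ran from -0.78 (Rpl12) to 0.46. Their mean level was 12.11, 12.22 and 12.38 in CCR7- and 12.40, 12.34 and 12.12 in CCR7+ cells, so the fractions overlapped. Rplp0 read between 13.40 and 13.48 in all 6 arrays. Other settings called up to 2 higher and up to 3 lower of these genes, and values this near the top of the scale can be compressed. Of 31 genes of translation initiation and tRNA synthetases 20 fell and none rose (17 and 1 without CCR7+ replicate 1). The synthetases Tars (-2.37 and -1.69) and Eprs (-1.96 and -1.61) were among them.

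Genes of mitochondrial translation and of the TCA cycle were often lower in CCR7+ cells. Of 40 mitochondrial ribosomal proteins 24 fell and 1 rose (23 and 1 without CCR7+ replicate 1, and 2 rises without CCR7+ replicate 3), and of 32 genes of the TCA cycle and of protein import 20 fell and none rose (18 and 0). Idh2 read 8.90, 8.63 and 8.32 in CCR7- and 5.49, 6.77 and 6.13 in CCR7+ cells. Idh3a (-2.37 and -2.20) and Fh1 (-1.91 and -1.70), further enzymes of the cycle, fell. The subunits of the respiratory chain were less uniform, with 14 of 38 lower and 2 higher. Without CCR7+ replicate 1 these were 18 and 0, without CCR7- replicate 1 they were 8 and 0, without CCR7- replicate 2 none was higher and without CCR7- replicate 3 the number higher was 1. Their mean level was 10.99, 10.93 and 11.06 in CCR7- and 10.70, 10.63 and 10.38 in CCR7+ cells, a small shift beside that of ribosome biogenesis.

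Of 23 sterol synthesis genes 15 were called higher and 3 lower (16 and 3 without CCR7+ replicate 1), with a median change of 0.95. Their mean level was 8.10, 7.81 and 7.98 in CCR7- and 8.78, 8.82 and 8.83 in CCR7+ cells. Idi1, which isomerises isopentenyl diphosphate, read 10.43, 9.61 and 10.10 against 12.42, 12.89 and 12.19. Fdft1 (squalene synthase) read 8.50, 8.54 and 9.0 against 10.74, 11.08 and 11.07, and Hmgcs1 read 9.95, 10.21 and 10.23 against 12.60, 11.95 and 12.21. Scap, the escort of SREBP proteins, fell (-0.83 and -0.76). After quantile normalisation was repeated, or with only the 6 arrays in the fit, 1 sterol gene fell.

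Fatty acid and phospholipid genes were more often lower, with 17 of 37 lower and 6 higher (14 and 6 without CCR7+ replicate 1). The elongase Elovl6 read 7.31, 6.75 and 6.93 in CCR7- and 4.84, 5.04 and 4.52 in CCR7+ cells, and Fasn fell (-1.13 and -1.04). Alox5ap, which serves leukotriene synthesis, read 12.20, 12.18 and 12.29 against 9.81, 10.30 and 10.26. The fatty acid binding protein Fabp5 read 7.37, 9.72 and 8.06 against 12.84, 12.18 and 12.01, and the prostaglandin synthase Ptgs2 rose (3.69 and 3.69).

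In glycolysis and glycogen metabolism 11 of 28 fell and 4 rose (9 and 4 without CCR7+ replicate 1). With the _s_at, _x_at and _a_at probe sets left out, and with them genes that have no other, the falls were 6. The liver-type glycogen phosphorylase Pygl read 5.62, 7.12 and 5.18 in CCR7- and 10.86, 10.93 and 10.78 in CCR7+ cells. The transporter Slc2a6 (3.25 and 3.47) and the regulator Pfkfb3 (2.80 and 3.29) rose. Hk2, the inducible hexokinase, read 10.09, 10.14 and 9.91 against 7.42, 8.17 and 8.04, and Aldoc fell (-2.43 and -2.10). Of 36 genes of protein folding and secretion in the endoplasmic reticulum 19 were lower and 3 higher (18 and 2), among them the disulphide isomerase Pdia6 (-2.36 and -1.67).

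Genes associated with tolerance rose in 11 and fell in 4 of 25, in each fit, against the 12.3% and 24.1% of all genes. Of the falls 3 were called in both fits. Several of them, such as Arg2, Socs2, Cd274, Cd200 and Itgb8, are described above, since the lists share members. Pdcd1lg2 (PD-L2), a ligand of PD-1, read 4.45, 5.59 and 5.32 in CCR7- and 7.31, 8.56 and 8.12 in CCR7+ cells. Aldh1a2, which makes retinoic acid, read 6.17, 7.30 and 6.95 against 8.69, 9.40 and 9.51. Havcr2 (TIM-3), an inhibitory receptor, read 11.14, 11.10 and 10.81 against 7.69, 8.81 and 8.48. The fractions did not overlap in these genes. Ido1, which degrades tryptophan, was not called (-0.39 and -0.41).

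Survival and death genes included rises and falls, with 9 of 28 higher and 8 lower (8 and 7 without CCR7+ replicate 1). With all 6 arrays the falls, at 28.6%, lay near the share of all genes tested. Cflar (c-FLIP), an inhibitor of caspase-8, read 7.54, 8.01 and 7.61 in CCR7- and 9.21, 10.01 and 10.36 in CCR7+ cells, and all 5 of its probe sets rose. Birc2 and Fas rose too. Casp6 read 10.74, 10.52 and 11.08 against 8.17, 8.76 and 8.27, and Casp2 (-2.40 and -2.12) and the caspase inhibitor Xiap (-2.10 and -1.90) fell. In MAP kinase signalling 12 of 34 rose and 8 fell in both fits. The inhibitor of RAS signalling Spred1 read 6.83, 6.88 and 7.42 against 10.33, 10.36 and 10.30, and all 7 of its probe sets rose. Dusp5 rose (2.94 and 3.13) and Dusp6 fell (-2.16 and -1.37), 2 phosphatases that act on ERK.

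Genes of handling and immediate-early response gave no more calls than the background. Of 28 tested, 1 rose and 3 fell, 3 and 2 without CCR7+ replicate 1, and 5 fell without CCR7+ replicate 3. The remaining lists are given by their counts with all 6 arrays and then without CCR7+ replicate 1. Of 36 genes of vesicle traffic by Rab and Arf proteins 12 rose and 9 fell (11 and 8), with Rab9 (2.30 and 2.23) and Rab7b (-2.69 and -2.35) the largest in each direction. Of 37 lysosome genes 8 rose and 9 fell (9 and 6). Of 32 proteasome genes 7 rose and 1 fell (5 and 1), and of 29 autophagy genes 4 rose and 3 fell (4 and 3). Of the autophagy falls 2 were called in both fits. Of 28 nuclear receptors and circadian genes 4 rose and 5 fell (4 and 4). Of 29 antioxidant and metal handling genes 9 rose and 7 fell (7 and 5). Cholesterol efflux had 4 rises and 5 falls of 15 (5 and 5) and SLAM receptors 1 and 3 of 10 (1 and 2). Several of these counts rested on single arrays. Without CCR7- replicate 1 the rises were 4 in the proteasome list and 2 among nuclear receptors, and the falls were 4 in the antioxidant list, as they were without CCR7- replicate 3. Without CCR7- replicate 2 the proteasome rises were 3, and without CCR7+ replicate 2 the autophagy falls were 5.

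**Figure D5:**
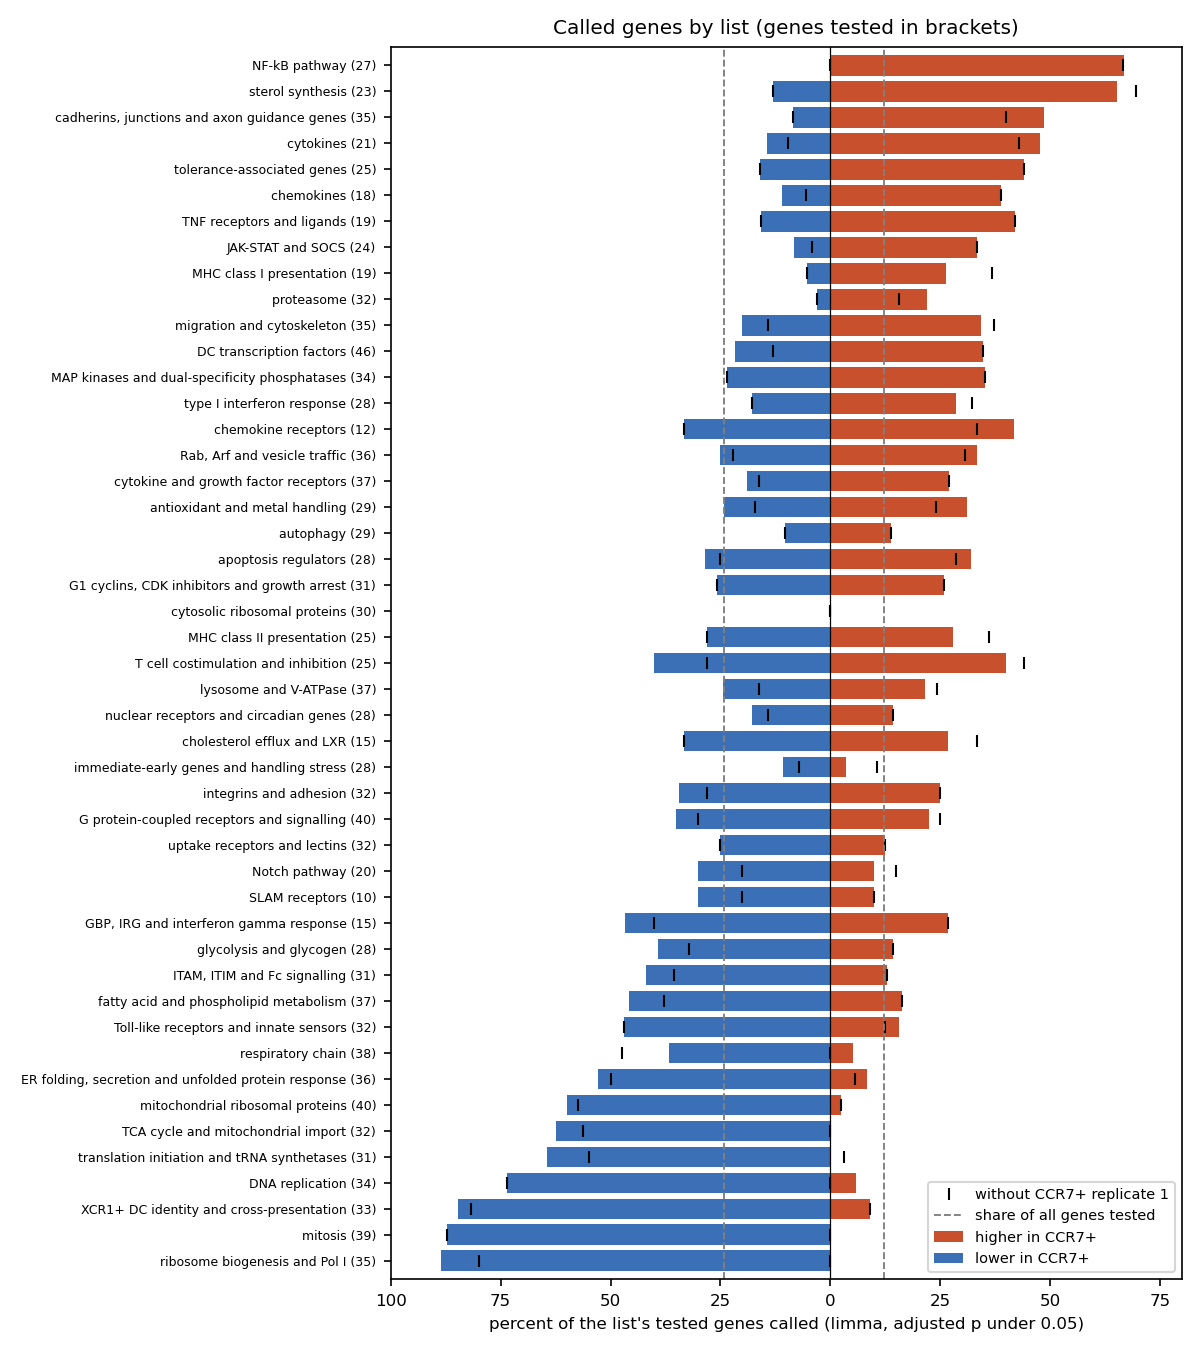
Percent of each list's tested genes that limma called higher (right bars) or lower (left bars) in CCR7+ cells, for the lists described, with the number tested in brackets; ticks give the share without CCR7+ replicate 1 and dashed lines the share of all genes tested, 12.3% and 24.1%. NF-κB and sterol synthesis reach furthest to the right, and ribosome biogenesis, mitosis and XCR1+ DC identity furthest to the left.

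Markers of other cells were read in both fractions. Of 8 B cell markers tested 5 were higher in CCR7+ cells in both fits, with no fall. Cd79b, a chain of the B cell receptor, read 5.06, 6.37 and 4.91 in CCR7- and 7.47, 9.44 and 7.30 in CCR7+ cells. Ms4a1 (CD20) read 9.24, 9.23 and 9.35 against 10.63, 11.75 and 10.07. CCR7+ replicate 2 was the highest array in both, as it was in S1pr1, and a relation of S1pr1 to these markers was not tested. The mean over the 9 markers on the array ranged from 6.24 to 6.85 in CCR7- and from 6.95 to 7.93 in CCR7+ cells. The factor Pax5 read between 4.30 and 4.86 in the 6 arrays and was not called (0.26 and 0.27), nor was Ighm (-0.15 and 0.22). The factor Ebf1 was among the 5 that rose. It read 3.96, 4.09 and 4.19 in CCR7- cells, under the filter value, and 4.55, 5.42 and 4.64 in CCR7+ cells. Fcrla read 9.32, 10.18 and 9.92 against 8.65, 9.42 and 9.10 and was not called. Vpreb3 was under the filter value in all 6 arrays. Genes shared by B cells that rose in the lists above were Spib (3.43 and 3.63), Blnk (1.91 and 2.25), Cd22 (1.53 and 1.67) and Cxcr5 (1.44 and 1.61). The part of B cells in these rises was not tested.

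The plasma cell list had 2 of 7 genes higher and 1 lower (3 and 1 without CCR7+ replicate 1). Jchain read 5.05, 11.23 and 10.88 in CCR7- and 10.57, 12.24 and 9.24 in CCR7+ cells and was not called, with CCR7- replicate 1 far below the other 5 arrays. The plasmacytoid DC list had 3 of 9 higher and 1 lower, with Spib and Ly6d (2.93 and 3.03) among the rises. Of the other lists, T cells had 0 of 9 called, NK cells 2 of 7 lower, macrophages 2 higher and 2 lower of 11, monocytes and neutrophils 2 of 7 lower, SIRPα+ DCs 1 of 10 higher (2 without CCR7+ replicate 1) and red cells 1 of 6 higher. Mgl2 and Itgam of the SIRPα+ DC list were under the filter value in all 6 arrays. Stroma had 1 higher and 1 lower of 6, and none without CCR7+ replicate 1. The mean of the T cell list lay between 4.89 and 5.30 over the 6 arrays.

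The same fractions of the thymus were measured in other arrays, so the change there could be set against that in the spleen in 1 model. The difference was called in 244 genes (1.79%) with a more positive change in thymus and in 189 (1.39%) with a more negative one, and in 234 and 217 without spleen CCR7+ replicate 1. Without spleen CCR7- replicate 3 the positive ones were 161. Ehf, an ETS factor of epithelia, was one of the genes with more rise in spleen. It read 3.68, 4.28 and 4.75 in spleen CCR7- and 8.33, 8.73 and 9.07 in spleen CCR7+ cells, a change of 4.47 against 1.33 in thymus (difference -3.14, adjusted p = 0.000156, limma). Ccl5, with a change of 5.89 in spleen and 5.77 in thymus, had no called difference, whereas Pvr did (4.17 in spleen and 2.03 in thymus).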

How the data were processed

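Mouse cells were measured on 15 arrays, and the values used are the log2 signals deposited by the authors, made with RMA and the affy package per the submitters' processing notes. Versions, and which arrays were normalised together, are not stated in these sources. Of 45101 probe sets 34958 had 1 gene symbol, 932 several and 9211 none in the annotation, giving 18194 genes. A gene was represented by the probe set of highest average signal across the 15 arrays. A gene was tested if 3 or more arrays exceeded 4.39, the 40th percentile of the whole table, which left 13629.

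Group means of all 5 groups were fitted in limma 3.58.1 (R 4.3.3; 10 residual and 4.01 prior degrees of freedom) and compared by contrasts. The same fit was repeated without spleen CCR7+ replicate 1. Only 3 arrays per group limit the precision, and an exact test of 3 against 3 cannot go below p = 0.1. The members and the lists were chosen with earlier results of these data known. Genes named were those of the sort gates, the 20 largest rises and falls called in both fits without overlap, up to 5 rises and falls of each list, list members not called or whose call ends without the replicate, genes dim in 1 fraction and the 8 largest differences to thymus in each direction. Not all are printed, and 1 list is not reported here. Outside this rule, and chosen after their values were seen, were H2-Ab1, Aldh1a2, Cdkn2c, Batf3, Irf8, Cadm1, Wdfy4, Ccnd2, Cdkn2a, Cd274, Icosl, Tnfsf9, Fasn, Itgb7, Nrp2, Nfkb2, Tank, Tnfaip3 and the markers Cd79b, Ms4a1, Ighm, Pax5, Ebf1, Fcrla, Jchain, Ly6d and Mgl2. Of 2660 called genes with several probe sets above the filter, 1155 had all of them called the same way and 48 had one called the opposite way. Alternatives were other filters, probe set choices, scalings, variance models, array weights, the replicate number as a block, a minimum change and leaving out each array.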

Additional observations from a re-analysis of the deposited data

Results flagged for a closer look

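Genes whose change differed between thymus and spleen by a limma test of the difference itself stand here, the 8 largest in each direction. A more positive change in thymus was found for Igfbp4 (4.54), Serpinb2 (4.14), Flrt3 (3.60), Stat4 (3.44), Ramp3 (3.40), Ndnf (3.24), Snhg16 (3.18) and Vopp1 (3.09), each value being the thymus change minus the spleen change on the log2 scale. In the spleen Igfbp4 stayed between 5.57 and 6.25 in all 6 arrays, while Ndnf rose from 3.93, 3.99 and 3.52 to 7.29, 6.79 and 6.16. Serpinb2 fell in spleen and read 3.44 and 4.04 on the mean in thymus CCR7- and CCR7+ cells, under the filter value. The 2 probe sets of Snhg16 gave spleen changes from -0.99 to 0.52.

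A more negative change in thymus was found for Zmynd15 (-4.74), Cd244a (-4.34), Klrb1b (-3.83), Naaa (-3.59), Cd36 (-3.36), Cd84 (-3.20), Ehf (-3.14) and Matn2 (-3.11). Zmynd15 averaged 10.95 in thymus CCR7- cells and 4.70 in spleen CCR7- cells, and 12.79 and 11.28 in the CCR7+ cells. Naaa, an acid amidase of the lysosome, fell in both tissues. Cd84 averaged 4.15 and 4.11 and Matn2 3.17 and 3.01 in the spleen fractions, under the filter value, so a fall there could not be seen. All 16 differences were also called without spleen CCR7+ replicate 1.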

How the results depend on the processing

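The counts of genes called higher and lower stayed within 1.5 times of 1678 and 3291 under every alternative but 1. Asking for changes beyond 2-fold with limma's treat called 369 higher and 259 lower, the same numbers among genes at least 2-fold apart. The main rule called 889 and 1784 at least 2-fold apart. Between tissues treat called 13 positive and 16 negative differences. It tests each change against 2-fold and not against 0, so a mean change over 2-fold is not enough for a call. Leaving out each spleen array in turn gave from 1336 to 1720 higher and from 2602 to 3412 lower, from 821 to 938 and from 1445 to 2169 at least 2-fold, and from 161 to 358 positive and from 141 to 217 negative differences to thymus. Array weights gave 284 negative differences. With the 6 compared arrays alone 1263 were higher and 2561 lower. The replicate numbers of the sample names did not pair the samples, since deviations from the group means correlated at -0.12, -0.12 and -0.10 between arrays of the same number, and no array correlated best with its own number. Between arrays of different numbers the correlations ran from -0.19 to 0.28. CCR7- replicates 1, 2 and 3 correlated best with CCR7+ replicates 2, 3 and 1, at 0.28, 0.22 and 0.24, and every other pair was negative. Whether these arrays share a preparation was not tested, and no other pairing was fitted. The replicate block gave 1721 higher and 3343 lower. The depth of an array is its signal over background: changes of genes under 4.39 or near the top of the scale are compressed.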
